A study of Mus musculus with 8 samples.

Results

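Tfam packages mitochondrial DNA and is needed to start its transcription. The nuclear-encoded genes of respiratory complexes II to V, cytochrome c and their dedicated assembly factors were followed in alveolar macrophages that had lost Tfam. They were taken by name from the deposited table: every gene whose symbol begins with Sdh followed by a, b, c, d or af, with Uqc, with Cox and a digit, or with Atp5, and in addition Cyc1, Cycs, Ndufa4, Surf1, Sco1, Sco2 and Bcs1l. This gave 66 of the 12367 genes listed, and the naming rule itself used no measured value. The list did depend on values, since every listed gene had a depth-scaled value above 1 in at least 3 libraries. Genes that did not reach this could not be members. The rule was also set with earlier results of these data known. All 66 passed the filter on low values (4 or more libraries at 1 or above), Cox6a2 only through the Tfam-deficient libraries and Cox7a1 only through the controls.

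The study sequenced polyadenylated RNA from 8 pools of lung alveolar macrophages, sorted as live CD45+ F4/80+ CD11c+ cells from untreated mice of 3 weeks, each pool holding 3 to 5 male and/or female animals. Both groups carried the floxed Tfam alleles. The 4 control pools (WT) were Tfam-fl/fl without Cre, and the 4 deficient pools (KO) were CD11c-Cre Tfam-fl/fl, in which Cre is driven from the promoter of CD11c (Itgax), a gene active in alveolar macrophages and dendritic cells. No library with Cre and intact Tfam was analysed here, so the loss of Tfam and the presence of the Cre transgene cannot be told apart. In bulk RNA, fewer cells of a type and less RNA per cell cannot be told apart either, and p-values measure the spread between pools.

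The respiratory chain passes electrons from NADH and succinate to oxygen and uses the energy to pump protons, which ATP synthase (complex V) then uses to make ATP. Complex II, succinate dehydrogenase, is encoded by nuclear genes alone. Complexes III, IV and V are built from nuclear subunits imported from the cytosol and from subunits made inside the organelle: mt-Cytb in complex III, mt-Co1, mt-Co2 and mt-Co3 in complex IV, and mt-Atp6 and mt-Atp8 in complex V. Assembly factors insert haem, copper, flavin and iron-sulphur cofactors and hold half-built modules until their partners arrive. Alveolar macrophages clear surfactant lipid and are known for high fatty acid oxidation, which feeds this chain.

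Tfam itself stood at 26.1, 35.2, 30.3 and 29.7 on the deposited per-million scale in WT replicates 1 to 4 and at 4.52, 5.08, 4.29 and 3.52 in the KO replicates, without overlap. It fell by 85.7% (log2 fold change −2.55, 95% interval −2.81 to −2.29, limma adjusted p = 1.02e-06), and the two-sided exact permutation p was 0.0286, the smallest that 4 against 4 libraries allow. Listed genes held 20243772 to 30263201 reads per library, with no difference between the groups that the exact permutation test could show (p = 0.343). All 13 alveolar macrophage markers were listed, with summed values of 38350 to 39270 in WT and 39420 to 44990 in KO, 3 of them higher and 4 lower. Markers of monocytes and interstitial macrophages moved with genotype: 6 of 7 were listed, all 6 rose, and their sum went from 36.2 to 58.5 in WT to 69.3 to 205 in KO. Neutrophil markers (6 of 7 listed) summed to 93.1 to 137 and 111 to 152, dendritic cell markers (5 of 5) to 13.3 to 19.1 and 11.7 to 26.2, and epithelial markers (6 of 6) to 65.5 to 141 and 71.0 to 107. Of the T and NK cell and eosinophil markers 1 of 7 and 0 of 3 were listed, and Cd3e and Epx were not among them. The listed T and NK cell marker, Lck, rose from 0.0833 to 0.311 in WT to 1.26 to 3.05 in KO. The part of these cells in the results below was not tested.

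The subunits encoded in mitochondrial DNA, which are not among the 66, fell in every case: 6 of 6 were lower (median log2 fold change −3.86), and their summed value fell from 9021 ± 1614 to 645.5 ± 142 (SD, n = 4). For mt-Co1, the catalytic core of complex IV, the mean went from 5262 ± 968 to 393 ± 91 (limma adjusted p = 1.27e-06). For mt-Cytb it went from 1609 ± 330 to 112 ± 25.8, and for mt-Atp6 from 358 ± 134 to 22.9 ± 13. The value of mt-Co3 is uncertain, since it had 0 reads in KO replicates 1 to 3 and stood at 18.8 in replicate 4. The nuclear genes showed no such drop. Of the 66, 19 (28.8%) rose, 4 (6.06%) fell and the other 43 were not called (limma on log2(value + 1), Benjamini-Hochberg adjusted p under 0.05 over 12163 genes). The background over the 12163 genes was 18.7% higher and 20.0% lower, 38.7% in all. The median log2 fold change of the 66 was 0.08, beside −0.01 over all tested genes, and 46 of the 66 values were positive. Every KO library lay above every WT library in 17 members and below in 3, where the shares over all tested genes were 18.1% and 19.6%.

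These totals depend on how the libraries are scaled. Each deposited column carries a factor of its own, on average 0.969 ± 0.00683 for the WT libraries and 1.03 ± 0.00700 for the KO libraries (SD, n = 4). On a plain per-million scale of the listed reads, 13 members were higher and 7 lower, beside 14.1% and 28.7% of all tested genes. The share of calls that were increases was 82.6% on the deposited scale and 65% on the plain one. The members' median was then −0.01 and that of all genes −0.09, so that the direction of the median turned while its place above the median of all genes did not.

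Among the 43 members without a call, the log2 fold changes ran from −0.12 to 0.21, and for all 43 the 95% interval lay within 0.5 on either side of 0. The plot of fold changes by complex shows most subunits of complexes II, III and V near 0 on the deposited scale. Of the uncalled complex V subunits, Atp5c1 was highest at 0.18 (95% interval 0.01 to 0.34). Calls were made for 46.7% of the complex IV subunits, 50% of its assembly factors and 75% of the 4 complex II assembly factors. Of the complex V subunits 11.8% were called, and of all tested genes 38.7%. Whether these shares differ was not tested.

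**Figure D1:**
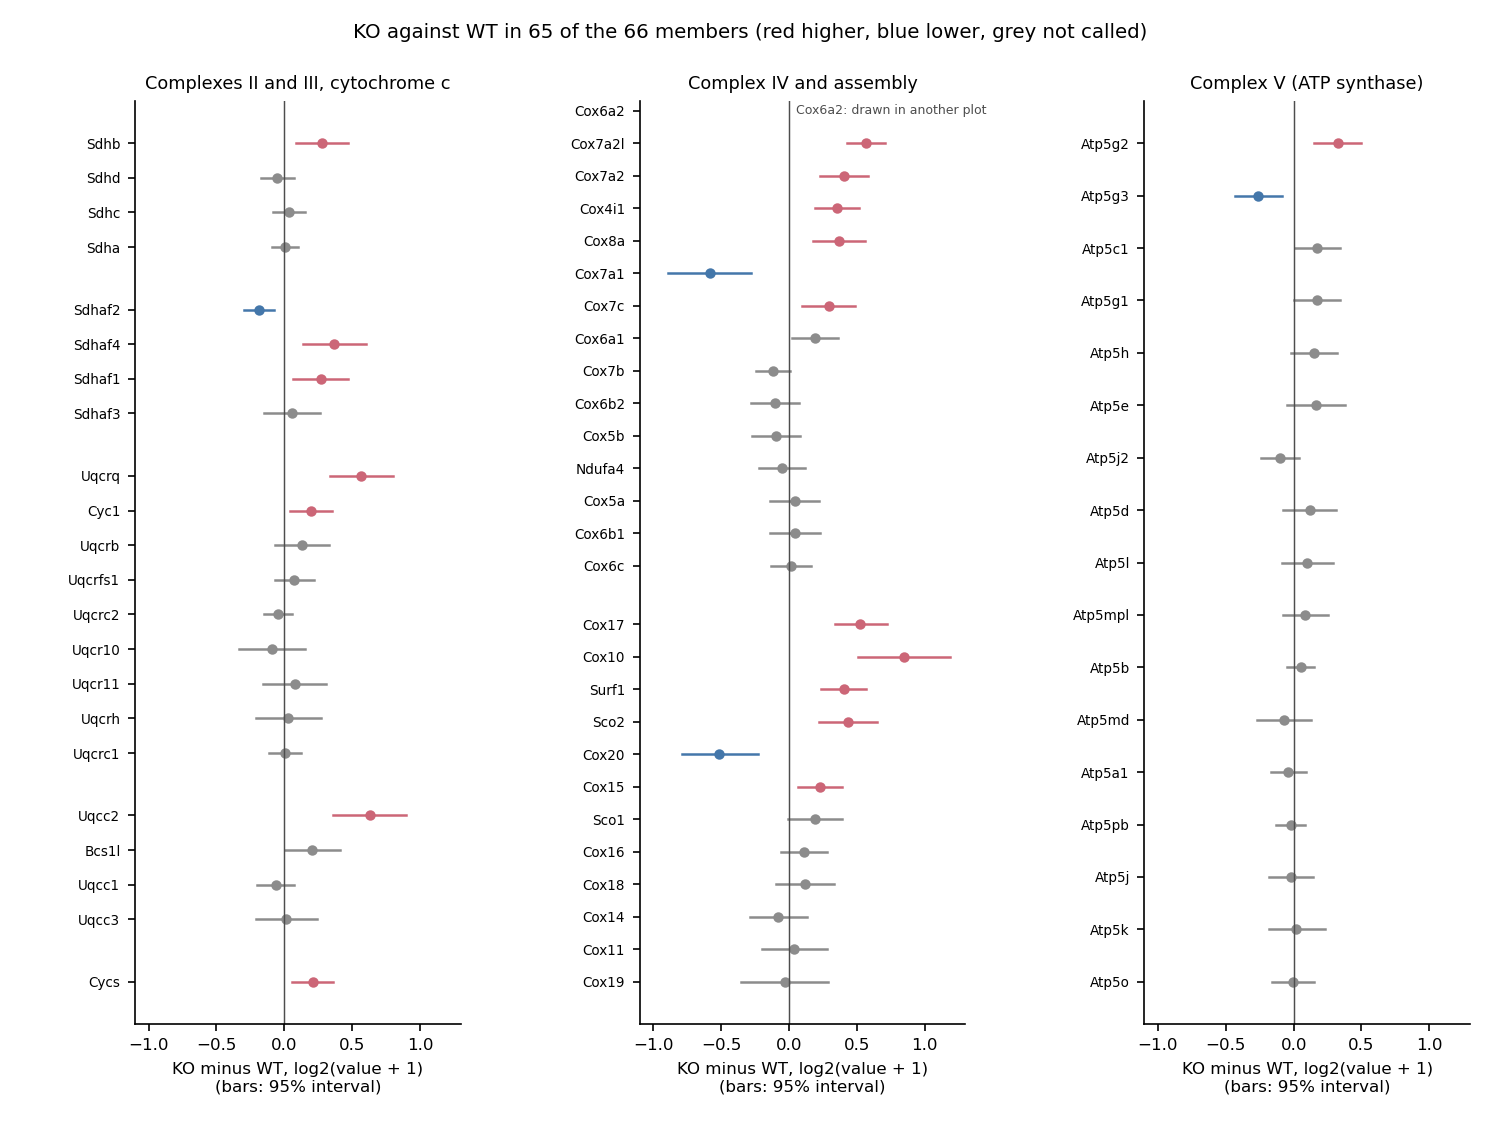
Differences between KO and WT (log2(value + 1), points) with their 95% intervals (bars) for 65 of the 66 genes, grouped by complex, subunits and assembly factors apart. Cox6a2, at 4.43, lies off this scale and is drawn per library in the plot of Cox6a2 and its neighbours. In complex V 15 of 17 genes are grey (not called) and 11.8% are called, beside 38.7% of all tested genes. In complex IV 6 of 15 subunits and 5 of 12 assembly factors were called higher (red), beside 18.7% of all tested genes. Cox6a2, not drawn, is among the 6.

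Complex II oxidises succinate, and its subunit mRNA was by sum at almost the same level in both groups. Of its 4 subunits 1 rose (25%) and none fell, beside 18.7% higher and 20.0% lower of all tested genes. The summed value of the 4 subunits was 607 ± 18.7 in WT and 622 ± 18.4 in KO, a change of 2.5% (−3.8% on the plain scale). Sdha, the flavin-bearing catalytic subunit and the highest of them by value, was at 300.2, 318, 308 and 312 in the WT libraries and at 316, 303.5, 317 and 306 in the KO libraries. The groups overlapped fully, and the log2 fold change was 0.005 (95% interval −0.09 to 0.10, limma adjusted p = 0.942). Per kilobase of transcript Sdha (107 ± 2.63 in WT) and Sdhd (101 ± 4.91), a membrane anchor, had levels that overlapped within their spread, and Sdhc, the other anchor, was lower at 30.7 ± 1.57. Neither anchor was called.

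Sdhb, the iron-sulphur subunit, was the exception. It was at 79.2, 79.1, 77.1 and 64.6 in the WT libraries and at 94.1, 90.5, 99.6 and 80.7 in the KO libraries. The lowest KO library was just above the highest WT library. Its mean rose by 21.6% (limma adjusted p = 0.027), which is 0.28 ± 0.09 (SE) on the log2 scale. Its call was lost without KO replicate 1, 2 or 3 (adjusted p 0.0545 to 0.0778 by limma) and on the plain scale (adjusted p = 0.101). The window upstream of its RefSeq start holds the 8-base core of the site of NRF1, a factor known to regulate nuclear respiratory genes. That stretch of GRCm38.p6, chr4:140961197-140961244 on the plus strand, is shown with the core in capitals.
Sdhb: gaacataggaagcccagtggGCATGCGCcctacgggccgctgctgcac

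Among the 4 assembly factors of complex II, 2 were higher (50%) and 1 lower (25%), beside 18.7% and 20.0% of all tested genes. Sdhaf2, which attaches the flavin to Sdha, was at 73.8, 71.5, 72.8 and 73.2 in the WT libraries, a tight range, and at 62.5, 60.8, 65.9 and 66.2 in the KO libraries. The groups did not overlap, and the mean fell by 12.3% (log2 fold change −0.19, limma adjusted p = 0.0133). Sdhaf4, which binds the flavinated Sdha, was at 10.2, 9.37, 8.44 and 9.48 in WT and at 14.6, 11.0, 11.5 and 12.8 in KO (log2 fold change 0.37, limma adjusted p = 0.0179). Sdhaf1, which helps to insert the iron-sulphur clusters of Sdhb, was at 6.45, 7.95, 6.61 and 6.41 in WT and at 8.87, 8.55, 8.11 and 8.20 in KO (log2 fold change 0.27, limma adjusted p = 0.0418). All KO libraries were above all WT libraries for both. The Sdhaf1 call did not hold on the plain scale (adjusted p = 0.132) or without any single library other than WT replicate 2 (limma adjusted p 0.0586 to 0.10). Sdhaf3, the other iron-sulphur factor, was not called. Sdhaf1 shares 1733 exon bases with the opposite-strand gene E130208F15Rik, and whether reads were counted by strand is not given in the sources used here. By sum the 4 factors were at 94.2 ± 1.14 in WT and 90.1 ± 3.15 in KO, 4.39% lower (10.3% lower on the plain scale) and without overlap on either scale, a sum dominated by Sdhaf2.

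Complex III passes electrons from ubiquinol to cytochrome c. Of 9 nuclear subunits 2 rose (22.2%) and none fell, beside 18.7% higher and 20.0% lower of all tested genes. The sum of the 9 was 758.5 ± 48.8 in WT and 793 ± 40.6 in KO (4.5% higher, and 1.9% lower on the plain scale). Uqcrq, a small subunit bound next to cytochrome b, was at 31.7, 31.2, 28.7 and 26.9 in WT and at 54.4, 40.3, 43.7 and 40.1 in KO. The groups were well apart, and the mean rose 1.51-fold (log2 fold change 0.57, 95% interval 0.34 to 0.80, limma adjusted p = 0.0018). Cyc1, the cytochrome c1 that hands the electron on, was at 64.9, 68.9, 68.2 and 60.3 in WT and at 79.2, 75.4, 79.3 and 67.9 in KO. One KO library, replicate 4, lay inside the WT range. Its log2 fold change was 0.20 (limma adjusted p = 0.0429). The Cyc1 call was lost on the plain scale (adjusted p = 0.232) and without any single library other than KO replicate 4 (limma adjusted p 0.0538 to 0.113).

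The core proteins Uqcrc1 and Uqcrc2, the Rieske iron-sulphur protein Uqcrfs1 and the small subunits Uqcrb, Uqcrh, Uqcr10 and Uqcr11 were not called. Uqcrc2, the highest of the complex by value, was at 173 ± 6.65 in WT and 167 ± 3.75 in KO (log2 fold change −0.05, 95% interval −0.15 to 0.06). On the plain scale alone it was called lower, at −0.14 (limma adjusted p = 0.0399). Uqcrh has 2 pseudogenes of its own name in the annotation, and in complex V so do Atp5l (2), Atp5k (1) and Atp5c1 (1). Pseudogenes under other names were not counted, and the part of such copies in the values was not tested.

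Of the 4 assembly factors of complex III only Uqcc2 was called (25%), beside 38.7% of all tested genes. Uqcc2 works with Uqcc1 in the synthesis of cytochrome b inside the mitochondrion. It was at 11.9, 13.9, 10 and 9.98 in WT and at 21.8, 17.1, 17.1 and 16.9 in KO, without overlap and with KO replicate 1 high. The mean rose 1.59-fold (log2 fold change 0.63, 95% interval 0.36 to 0.90, limma adjusted p = 0.00274). Its partner Uqcc1 was at 25.0 ± 0.831 and 23.9 ± 1.04 and was not called. Uqcc3, which stabilises the early assembly form, was at 13 ± 1.58 and 13.1 ± 1.09. For Bcs1l, the chaperone that inserts the Rieske protein, the libraries did not overlap (6.73 to 8.39 in WT, 8.82 to 9.40 in KO), yet the test did not call it (log2 fold change 0.21, limma adjusted p = 0.095).

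Cycs, the cytochrome c that shuttles electrons from complex III to complex IV and takes part in apoptosis, was at 65.4, 70.6, 63.7 and 58.9 in WT and at 77.1, 74.7, 78.7 and 69.3 in KO. KO replicate 4 lay below WT replicate 2, and the other KO libraries were above all WT libraries. The log2 fold change was 0.21 (95% interval 0.06 to 0.36, limma adjusted p = 0.0323). The call was lost on the plain scale (adjusted p = 0.179) and without WT replicate 1, 3 or 4 or KO replicate 1, 2 or 3 (limma adjusted p 0.0596 to 0.089). Cycs also has 2 pseudogenes of its own name. Its upstream window, long used as a textbook example of NRF1 binding, holds the same core as that of Sdhb (GRCm38.p6, chr6:50566602-50566649, minus strand, core in capitals).
Cycs: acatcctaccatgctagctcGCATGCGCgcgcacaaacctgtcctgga

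Complex IV, cytochrome c oxidase, reduces oxygen to water. It held the most calls: 6 of 15 subunits rose (40%) and 1 fell (6.67%), beside 18.7% and 20.0% of all tested genes. Of the called subunits, Cox6a2 passed the filter on low values only through the KO libraries, and Cox7a1, which fell, only through the controls. The median log2 fold change of the 15 was 0.05, beside −0.01 over all tested genes. Summed over the 15 genes, the libraries were at 1386, 1416, 1275 and 1255 in WT and at 1758, 1469, 1559 and 1581 in KO, so that every KO library was above every WT library. The mean was 19.4% higher (12.1% on the plain scale, where KO libraries of 1428 to 1686 overlapped WT libraries of 1291 to 1470). Cox7a2l and Cox4i1 together made up 65.1% of the difference. Without these genes the sum was 10.3% higher, and the groups overlapped.

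**Figure D2:**
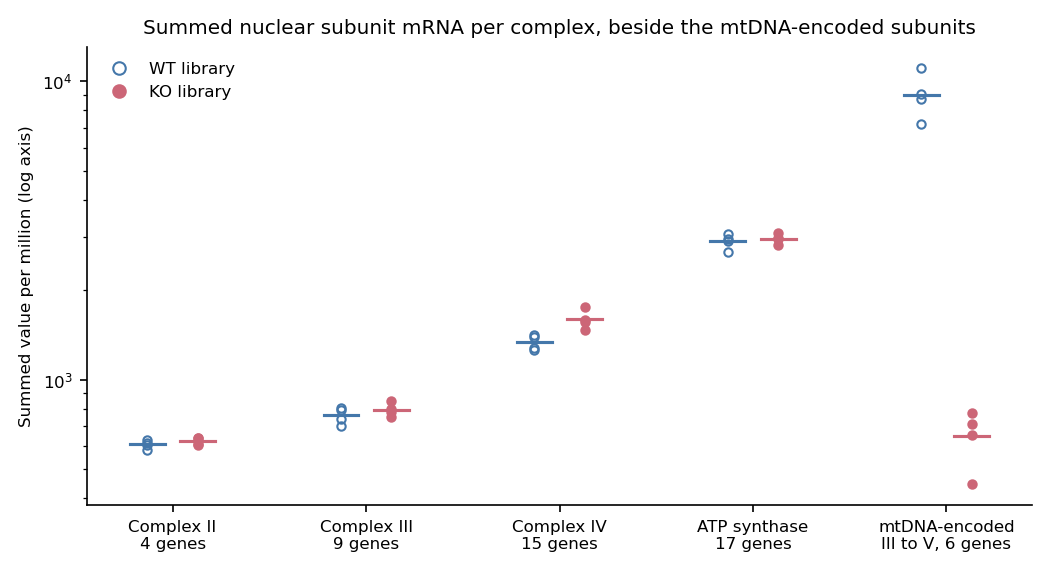
Summed per-million value (log axis) of the nuclear subunits of each complex and of the mitochondrially encoded subunits of complexes III to V, per library (open circles WT, filled circles KO, bars the means). The sums of complexes II, III and V overlap between the groups, complex IV lies higher in all 4 KO libraries, and the mitochondrially encoded sum falls from 9021 to 645.5.

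Cox7a2l, a Cox7a relative that joins complexes III and IV in supercomplexes, had the lowest p of any called member but Cox6a2. It was at 193, 197, 172 and 188.5 in WT and at 293, 259, 267 and 295.5 in KO. The gap between the groups was wider than the spread within either, and the mean rose 1.49-fold (limma adjusted p = 0.000102), or 0.57 ± 0.06 (SE) on the log2 scale. Cox4i1, the regulatory subunit that binds ATP and starts assembly around mt-Co1, was at 283, 282, 260 and 262.5 in WT and at 397, 309, 340 and 352 in KO (log2 fold change 0.36, limma adjusted p = 0.00443). Per kilobase it was the most abundant of the complex IV transcripts, at 360 ± 16.5 in WT and 463 ± 48.4 in KO. Again the groups did not overlap.

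Cox7a2, the common Cox7a isoform, was at 61.5, 60.5, 54.9 and 51.7 in WT and at 83.9, 74.9, 76.1 and 68.6 in KO (log2 fold change 0.40, limma adjusted p = 0.00276). Cox8a, the common form of the smallest subunit, was at 88.2, 86.0, 76.8 and 77.5 in WT and at 121, 92.4, 104 and 110 in KO (log2 fold change 0.37, limma adjusted p = 0.00716). Cox7c was at 67.8, 69.2, 58.6 and 60.2 in WT and at 91.2, 71.6, 74.2 and 77.7 in KO (log2 fold change 0.29, limma adjusted p = 0.0245). For these genes the KO libraries were all above the WT libraries, with KO replicate 1 highest and, for Cox8a and Cox7c, replicate 2 lowest. The Cox7c call was lost without WT replicate 3 or 4 or KO replicate 1 (limma adjusted p 0.0533 to 0.0656) and on the plain scale (adjusted p = 0.0792). The other structural subunits Cox5a, Cox5b, Cox6b1, Cox6c, Cox7b and Ndufa4 were not called. On the plain scale Cox7b was called lower (log2 fold change −0.21, limma adjusted p = 0.0131). Cox4i2 and Cox8b, the alternative forms of Cox4 and Cox8, were not among the listed genes.

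Cox6a2 changed more than any other member. It encodes the heart and skeletal muscle isoform of Cox6a, whose common form is Cox6a1. The WT libraries were at 0.217, 0.0914, 0.248 and 0.117, which are 5, 2, 6 and 3 reads, and the KO libraries at 28.8, 33.8, 27.0 and 12.7, which are 628, 993, 530 and 275 reads. Thus the gene was near the floor in every control (3 reads are worth 0.10 to 0.153) and clearly present in all 4 KO pools, lowest in replicate 4. The pooled reads gave a 178-fold ratio on the deposited per-million scale, with a 95% interval of 110 to 312 that covers counting error only. The log2 fold change on log2(value + 1) was 4.43 (limma adjusted p = 2.57e-06), and this fitted value depends on the constant added, from 2.51 with 5 to 5.88 with 0.25.

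Cox6a1 was at 89.1, 90.3, 80.9 and 76.6 in WT and at 106, 89.4, 99.0 and 90.3 in KO. It was not called in the unpaired test (log2 fold change 0.19, 95% interval 0.02 to 0.36, limma adjusted p = 0.0761), and it was called with the replicate number as a block (limma adjusted p = 0.0328). Per kilobase, Cox6a2 made up 0.168% ± 0.0767 of the Cox6a pair in WT and 18.6%, 24.1%, 18.6% and 10.5% in the KO libraries. The summed level of the pair per kilobase went from 148 ± 11.5 to 206 ± 21.6. The coding sequences of these genes in the GENCODE M21 annotation share 56.3% of aligned columns, and their longest identical run is 12 bases. The stretch around that run is shown to make this visible, bases 210 to 301 of the Cox6a1 and 165 to 256 of the Cox6a2 coding sequence, with the run in capitals.
Cox6a1: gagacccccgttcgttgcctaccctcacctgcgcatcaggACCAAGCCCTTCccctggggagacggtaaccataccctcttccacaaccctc
Cox6a2: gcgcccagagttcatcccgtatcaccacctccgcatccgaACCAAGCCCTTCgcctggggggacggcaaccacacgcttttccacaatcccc

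The position of Cox6a2 bears on how its value is read. In GRCm38 it lies at chr7:128205435-128206387 on the minus strand, inside the gene Itgad (chr7:128154376-128223816, plus strand), with which it shares 70 exon bases. Itgax, which encodes CD11c and gives its promoter to the Cre transgene, ends 54.8 kb away (chr7:128129547-128150657, plus strand), and Itgam ends 86.9 kb away. These neighbours were chosen after the value of Cox6a2 was seen. Itgad, an integrin alpha chain, went the other way, from 13.1, 9.92, 11.1 and 13.6 in WT to 1.26, 0.764, 0.991 and 2.73 in KO (limma adjusted p = 3.08e-05, log2 fold change −2.46). Itgam, which encodes CD11b, rose from 13.4 ± 2.50 to 79.1 ± 14.3 (limma adjusted p = 3.91e-06, log2 fold change 2.48). Itgax rose from 1094 ± 48.6 to 2050 ± 202, 1.87-fold (limma adjusted p = 2.29e-05). On the other side of Itgad, 9130023H24Rik (4.28 ± 1.07 and 4.90 ± 0.998) and Armc5 (17.8 ± 1.27 and 18.1 ± 2.60) were not called. The labels give the transgene by name only, so whether these values go with the transgene, with the loss of Tfam or with the rise of monocyte and interstitial macrophage markers cannot be told apart.

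**Figure D3:**
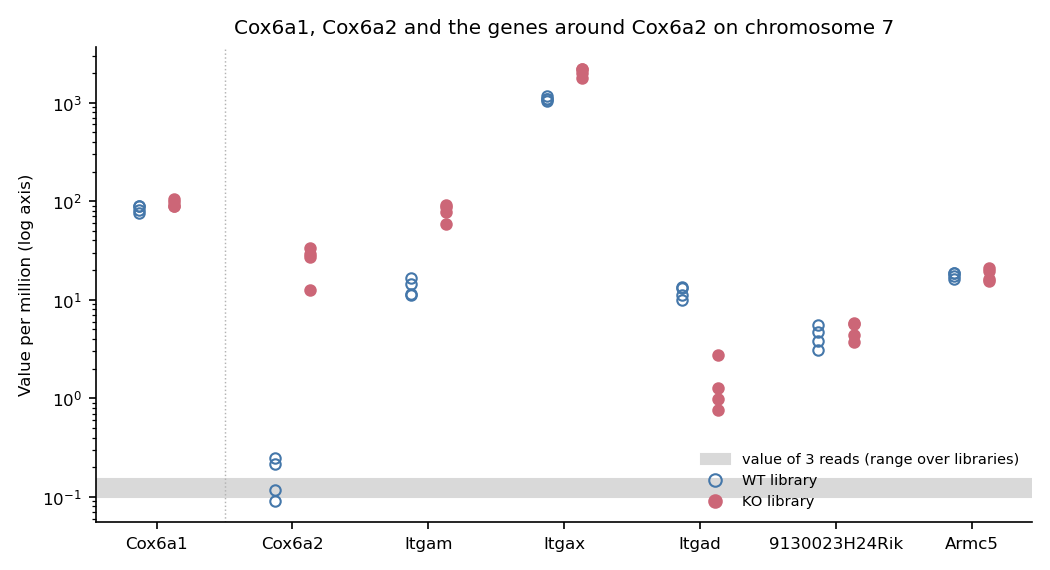
Per-million values (log axis) of Cox6a1, of Cox6a2 and of the genes around Cox6a2 in genomic order, per library (open circles WT, filled circles KO), with the value of 3 reads as a grey band. Cox6a2 goes from 0.0914 to 0.248 in WT to 12.7 to 33.8 in KO, while Itgad, the gene that contains it, goes from 9.92 or more to 2.73 or less.

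Cox7a1, the muscle form of Cox7a, was the subunit that fell. It was low throughout, at 2.07, 2.21, 1.77 and 1.38 in WT and at 0.848, 0.867, 0.940 and 0.942 in KO, without overlap. Its mean fell by 51.6% (log2 fold change −0.58 on log2(value + 1), −0.86 with 0.25 added in place of 1 and −0.22 with 5, limma adjusted p = 0.00772). Per kilobase its share of Cox7a1 and Cox7a2 went from 5.14% ± 0.625 to 1.96% ± 0.244. The muscle isoforms of Cox6a and Cox7a thus moved in opposite directions. Cox6b2, the testis-enriched form of Cox6b, was at 19.4 ± 1.49 and 18 ± 1.12, with a share of 14.8% ± 1.32 and 13.5% ± 1.14 of the Cox6b pair, and was not called.

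Of the 12 assembly factors of complex IV 5 were higher (41.7%) and 1 lower (8.33%), beside 18.7% and 20.0% of all tested genes. The sum of the 12 was at 190, 202, 185 and 191 in WT and at 236, 226, 231 and 226 in KO. It was 19.7% higher (12.3% on the plain scale) and without overlap on either scale. Cox10, which makes haem O from haem B, the first step towards the haem A of mt-Co1, had the largest increase after Cox6a2. It was at 13.2, 13.4, 15.5 and 10.6 in WT and at 24.6, 26.1, 29.9 and 18.2 in KO. No library overlapped, replicate 4 was lowest in both groups, and the mean rose 1.88-fold (log2 fold change 0.85, 95% interval 0.51 to 1.19, limma adjusted p = 0.00177). Cox15, which makes haem A from haem O in the next step, was at 30.3, 32.8, 30.9 and 28.5 in WT and at 37.5, 37.1, 37.5 and 32.3 in KO. Here KO replicate 4 lay inside the WT range (log2 fold change 0.23, limma adjusted p = 0.0286). The Cox15 call was lost without WT replicate 1, 3 or 4 or KO replicate 1, 2 or 3 (limma adjusted p 0.0555 to 0.0774) and on the plain scale (adjusted p = 0.142). It shares 444 exon bases with the opposite-strand gene Entpd7.

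Copper reaches the oxidase through Cox17, which passes it to Sco1, Sco2 and Cox11. Cox17 was at 23.4, 21.4, 20.9 and 24.8 in WT and at 37.6, 30.6, 31.8 and 32.1 in KO (log2 fold change 0.53, limma adjusted p = 0.000905). Sco2, which delivers copper to mt-Co2, was at 9.05, 11.1, 9.12 and 10.6 in WT and at 14.4, 13, 12.7 and 15.3 in KO (log2 fold change 0.44, limma adjusted p = 0.00541). The groups did not overlap in either gene. Cox17 shares 257 exon bases with Gm21987 on the same strand, which was not among the listed genes. Sco2 shares 856 exon bases with Tymp on the same strand, which stood at 1.07 ± 0.214 and 1.40 ± 0.466 and was not called, and 829 with the opposite-strand Ncaph2. Sco1 (11.1 ± 1.04 and 12.8 ± 0.866), Cox11 (4.96 ± 0.522 and 5.11 ± 0.506) and Cox19, a further copper-binding factor, were not called.

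Surf1, needed for the early steps around mt-Co1 and mutated in Leigh syndrome, was at 20.9, 20.9, 17.9 and 21.9 in WT and at 27.0, 28.3, 26.3 and 27.5 in KO. The groups were clearly apart (log2 fold change 0.41, limma adjusted p = 0.00184). It shares 137 exon bases with the opposite-strand gene Surf2, which was not called (log2 fold change 0.21). Cox20, a chaperone of newly made mt-Co2, was the factor that fell. It was at 9.61, 10.1, 8.51 and 9.81 in WT and at 6.95, 5.73, 5.16 and 7.88 in KO, lower in every KO library (log2 fold change −0.51, 95% interval −0.79 to −0.23, limma adjusted p = 0.00918). Cox20 shares 804 exon bases with the opposite-strand gene Hnrnpu. Cox14, Cox16 and Cox18, which act in the synthesis, joining and membrane insertion of the core subunits, were not called.

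The upstream windows of Cox10 and Cox20, the factors with the largest change in each direction, both hold the core of the ETS family site bound by GABPA, another known regulator of respiratory genes. In the minus-strand window of Cox10 (GRCm38.p6, chr11:64079473-64079519) it reads CCGGAAG, and in the plus-strand window of Cox20 (chr1:178319030-178319105) it lies reversed, followed by a YY1 core. The Cox10 window also holds a YY1 core, outside the stretch shown. The cores are in capitals.
Cox10: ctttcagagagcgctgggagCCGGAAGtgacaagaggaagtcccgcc
Cox20: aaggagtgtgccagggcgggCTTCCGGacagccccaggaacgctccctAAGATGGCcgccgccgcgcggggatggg

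**Figure D4:**
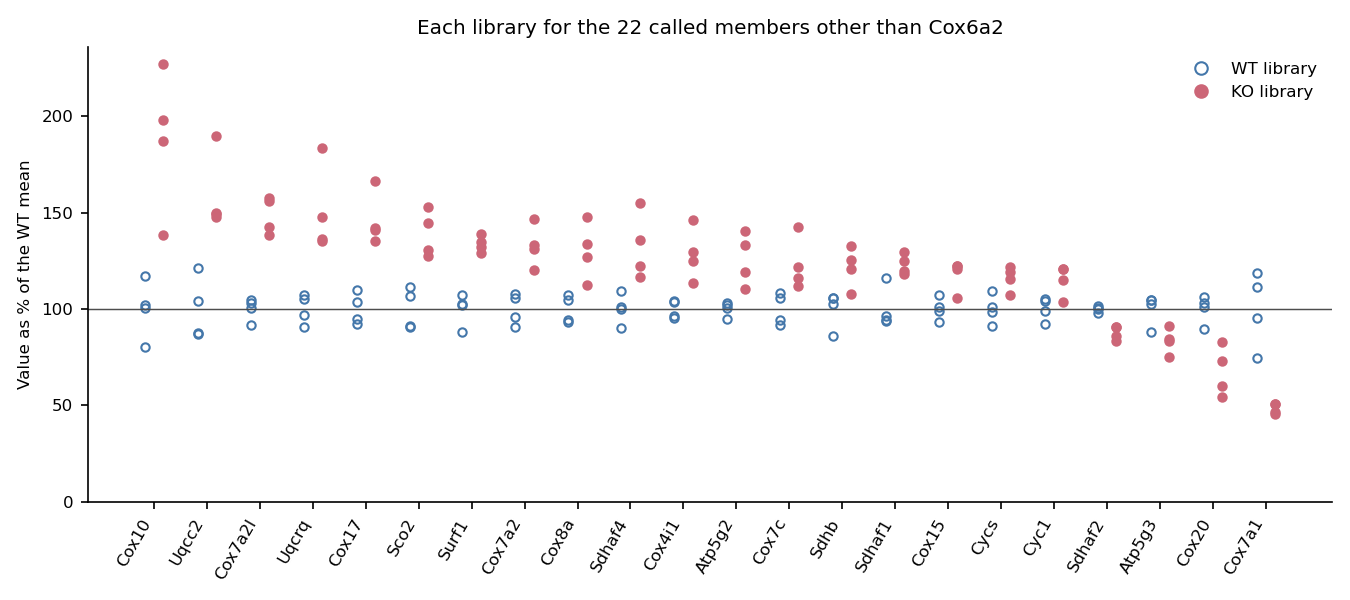
Each library's value as a percent of the WT mean for the 22 called members other than Cox6a2, ordered by log2 fold change (open circles WT, filled circles KO). Cox10 spreads widest among the KO libraries, from 18.2 to 29.9 on the per-million scale, and for Cyc1, Cycs, Cox15 and Atp5g3 the libraries of the groups overlap.

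ATP synthase had few calls. Of its 17 subunits 1 rose (5.88%), 1 fell (5.88%) and 15 were not called, beside 18.7% higher and 20.0% lower of all tested genes. The sum of the 17 was 2911 ± 162 in WT and 2969 ± 116 in KO (2.0% higher, and 4.3% lower on the plain scale). Atp5b, the catalytic beta subunit and the highest of all 66 by value, was at 782 ± 23.9 and 810.3 ± 22.6 (log2 fold change 0.05, 95% interval −0.05 to 0.15). Atp5a1, the alpha subunit, was at 611 ± 38.3 and 594 ± 20.4 (log2 fold change −0.04). Per kilobase Atp5b was at 408 ± 12.5 in WT, and the next subunit, Atp5g3, at 313 ± 25.0. The gamma, delta and epsilon subunits of the rotor shaft (Atp5c1, Atp5d, Atp5e), the stalk subunits (Atp5pb, Atp5h, Atp5j, Atp5o) and the small membrane subunits (Atp5j2, Atp5k, Atp5l, Atp5md, Atp5mpl) were not called. Atp5j2 was called lower on the plain scale (log2 fold change −0.19, limma adjusted p = 0.0323).

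Both calls were for genes of the c subunit, the proton-carrying ring, where 3 genes make the same mature protein with different import sequences. Atp5g2 was at 108.5, 110, 107 and 101 in WT and at 149, 117, 127 and 142 in KO, above all WT libraries in each case (log2 fold change 0.32, 95% interval 0.15 to 0.50, limma adjusted p = 0.00798). Atp5g3 was at 235.5, 235, 230.5 and 198 in WT and at 205, 168, 187 and 189.5 in KO. WT replicate 4 lay inside the KO range, and the others were above it (log2 fold change −0.26, 95% interval −0.43 to −0.09, limma adjusted p = 0.0228). The Atp5g3 call was lost without WT replicate 1, 2 or 3 or KO replicate 2 or 3 (limma adjusted p 0.0525 to 0.0656). Atp5g1 was at 49.8 ± 4.35 and 56.1 ± 3.61 and was not called (limma adjusted p = 0.106).

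The changes of these genes can be set against each other as a share. Per kilobase, Atp5g2 made up 36.1%, 36.4%, 36.2% and 38.4% of Atp5g2 and Atp5g3 in the WT libraries and 47.2%, 46.1%, 45.4% and 47.9% in the KO libraries, a gap several times the spread within a group. The summed level of the pair was 494.5 ± 31.8 and 490 ± 44.8, and the groups overlapped. Atp5g1 was left out of the pair because its transcripts differ in length. The coding sequences of Atp5g2 and Atp5g3 share 67.9% of aligned columns with no identical run over 8 bases, whereas Atp5g1 and Atp5g2 share a run of 21 bases at their 3′ end, shown in capitals at the end of the coding sequences (bases 351 to 411 of Atp5g1 and 381 to 441 of Atp5g2).
Atp5g1: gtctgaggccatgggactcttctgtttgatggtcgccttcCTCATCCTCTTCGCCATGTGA
Atp5g2: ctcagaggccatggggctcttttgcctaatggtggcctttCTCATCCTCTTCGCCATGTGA

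**Figure D5:**
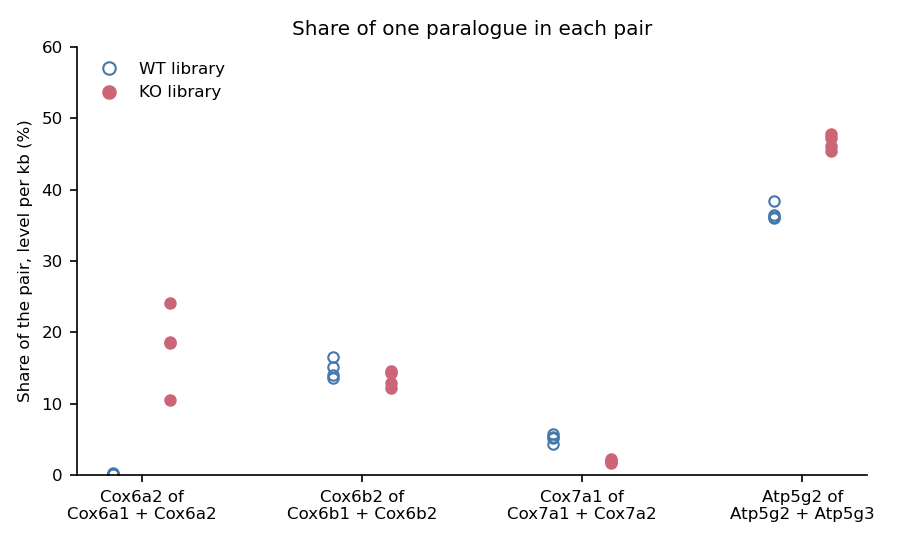
Share of 1 gene in the summed per-kilobase level of a pair of paralogues, in percent, per library (open circles WT, filled circles KO). Cox6a2 goes from under 0.3% to 10.5% to 24.1% of the Cox6a pair, Cox7a1 falls within the Cox7a pair, Atp5g2 rises within Atp5g2 and Atp5g3, and the Cox6b shares overlap.

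RefSeq promoter windows of 300 bases (250 before to 50 after the start, GRCm38.p6) could be matched by symbol for 54 of the 66 members. They were searched on both strands for the NRF1 core GCATGCGC, the ETS core CCGGAAG and the YY1 core AAGATGGC. These were found in 8 (14.8%), 24 (44.4%) and 6 (11.1%) of the 54, beside 6.09%, 21.4% and 5.66% of the 9366 genes of the deposited table with a window and 3.05%, 9.93% and 3.19% of all 27025 genes with one. Among members called higher, the counts were 3, 6 and 2 of 14, among those called lower 0, 2 and 1 of 4, and among those not called 5, 16 and 3 of 36. A match of letters is a description and not a binding site. Starts here are those of RefSeq. In GENCODE M21 the genes Sdhb, Sdhaf2 and Atp5g2 begin further upstream, so that their printed cores lie inside the gene. The Atp5g2 window carries 2 overlapping NRF1 cores, one on each strand (chr15:102671060-102671109, minus strand, in capitals), and that of Sdhaf2, which fell, a reversed ETS core (chr19:10525340-10525387, minus strand).
Atp5g2: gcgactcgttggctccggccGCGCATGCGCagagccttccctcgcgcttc
Sdhaf2: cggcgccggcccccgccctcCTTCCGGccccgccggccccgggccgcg

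By role, the calls can be set beside the 38.7% of all tested genes that were called (18.7% higher, 20.0% lower). Of the 20 assembly factors 8 rose and 2 fell (50% called, median log2 fold change 0.15), and of the 46 subunits, cytochrome c included, 11 rose and 2 fell (28.3% called, median 0.05). The background lies between these shares, and whether they differ was not tested. Other known assembly factors of complexes II to V that the naming rule does not take in gave 6 higher (21.4%) and 1 lower of 28 tested (median 0.07). Lrpprc, which stabilises mitochondrial mRNAs, rose from 59.5 ± 4.98 to 79.2 ± 6.65 (limma adjusted p = 0.00251). Coa5, an early complex IV factor, rose from 154 ± 6.17 to 184 ± 8.17, Oxa1l, the membrane insertase for mitochondrially made proteins, from 46.4 ± 3.45 to 55.4 ± 3.10, and Atpif1, the inhibitor of ATP synthase run in reverse, from 40.2 ± 4.18 to 52.5 ± 5.47. Tmem177, a partner of Cox20 in mt-Co2 assembly, and Atpaf1, which builds the F1 part of ATP synthase, also rose, and Cmc4 fell. Of the 45 complex I subunits and assembly factors with symbols beginning with Nduf (Ndufa4 left out), 10 rose (22.2%) and none fell (median 0.13). Complex I assembly factors under other names were not taken in. The shares that rose in both comparison lists are close to the background of 18.7%. The shares that fell were 3.57% of the other assembly factors and 0% for complex I. They lie below the 20.0% of all tested genes, as do the 6.06% of the 66 members.

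Single libraries moved many members together. In WT, replicate 2 was highest for 46 of the 66 and replicate 4 lowest for 40. In KO, replicate 1 was highest for 38 and replicate 2 lowest for 39. The median distance of the members from their group mean was 0.10 and −0.09 (log2) for the WT libraries and 0.08 and −0.07 for the KO libraries. WT replicate 4 and KO replicate 2 also had the most reads in listed genes of their groups, 29161957 and 30263201, and the part of depth was not tested.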

How the data were processed

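Values are the authors' deposited table of 1 normalised signal value per gene and library. The genome build was GRCm38, and the tools included RSEM 1.3.1, cutadapt 1.7.1, CASAVA 1.8.2 and limma, per the submitters' processing notes. Not given in the sources used here are the aligner, annotation release and strand setting. Each value is an odd multiple of its column's minimum, as whole reads plus 0.5 on a scaled per-million basis give. Reads derived this way (whole within 0.01 for 100% of values) served for depth, floors, the plain scale and 1 set of weights.

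Groups and replicate numbers came from the sample titles. log2(value + 1) was tested with limma 3.58.1 in R 4.3.3 (moderated variances with a trend, two-sided, Benjamini-Hochberg over the 12163 genes that reached 1 in 4 or more libraries, 204 not tested). The code was tested on simulated data. Same-numbered WT and KO libraries deviated together over all tested genes (correlations 0.363, 0.286, 0.394 and 0.431, against −0.374 to 0.0917 for other pairs). No label explains the numbers, so the pairing rests on these correlations, and the paired fit is an alternative. Per-kilobase levels use the median length of the principal GENCODE M21 transcripts. Of the called members 12 share exon bases with another annotated gene, and not every such overlap is named. Sequences come from RefSeq promoter windows (GRCm38.p6) and GENCODE M21.

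Named are all called members, in each role the highest and the most changed, isoform pairs, and up to 6 called genes of each comparison list. Members, lists and motifs were chosen with earlier results of these data known.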

Additional observations from a re-analysis of the deposited data

Results flagged for a closer look

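Over the 66 genes, 132 groups of 4 libraries were searched for 1 library far from the other three (a gap over Dixon's 95% critical value), and 8 were found. Chance gives about 1 in 20 groups. In WT replicate 4, Sdhb was at 64.6, with the others at 77.1 to 79.2, and Atp5g3 at 198, with the others at 230.5 to 235.5. WT replicate 2 had Sdhaf1 at 7.95, beside 6.41 to 6.61. KO replicate 1 had Uqcc2 at 21.8 (others 16.9 to 17.1), Uqcc1 at 22.4 (24.3 to 24.7) and Atp5j at 84.6 (75.5 to 76.4). In KO replicate 4 Cox15 was at 32.3, beside 37.1 to 37.5, and in KO replicate 2 Atp5pb was at 231, beside 245.6 to 248. The libraries named here are those that also lay lowest or highest for many members, except KO replicate 4.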

How the results depend on the processing

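The counts of 19 higher and 4 lower members were refitted under 20 alternatives, of which the plain per-million scale was chosen after the data were seen. It gave 13 higher (19.7%), 7 lower (10.6%) and a median of −0.0138, beside 14.1% higher and 28.7% lower of all tested genes. At an adjusted p under 0.01, 12 were higher and 2 lower. Leaving out 1 library at a time gave 13 to 19 higher, 3 to 4 lower and a median of 0.05 to 0.12. Over all tested genes these runs gave 15.7% to 19% higher and 16.2% to 20.2% lower. Library quality weights gave 18 higher, 6 lower and a median of 0.04, beside 22.1% higher and 24.2% lower of all tested genes. With the replicate block, which pairs same-numbered libraries, 20 were higher and 4 lower, beside 22.4% and 24.3% of all tested genes. Apart from Cox6a1 the block changed no other call. For calls lost without a single library, its limma adjusted p was 0.00225 for Sdhb, 0.00806 for Cox7c and 0.0118 for Cox15. It was 0.0122 for Cyc1, 0.01251 for Atp5g3 and 0.01255 for Cycs. For Sdhaf1 it was 0.0424, no lower than in the unpaired test. Of the 23 calls, 14 held in every alternative in which the gene was tested (Cox7a1 was left out by the stricter filter), and no called member changed direction. Besides the losses given above, Cyc1 was lost without the variance trend and Sdhaf1 with library quality weights. Tfam was lower in each. Other added calls were Cox6a1 (adjusted p = 0.0431) and Atp5c1 (0.0456) with median centring, Atp5c1 without WT replicate 2 (0.0435), Atp5a1 with quantile normalisation (0.0414), and Atp5j2 (0.0451) and Cox7b (0.042) with library quality weights, all by limma. Cox6a2 had 2 to 6 reads per WT library, in libraries of 24776683 to 29161957 listed reads. So few WT reads make its fold change imprecise.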
